A study of Mus musculus with 12 samples.

Results

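Secreted Wnt antagonists are extracellular proteins that limit Wnt signalling, most by binding the Wnt ligands or their co-receptors. The 10 genes described here were taken from the table by their symbols: the secreted frizzled-related genes Sfrp1, Sfrp2, Sfrp4, Sfrp5 and Frzb, the Dickkopf genes Dkk1, Dkk2 and Dkk3, and Wif1 and Sost. All 10 were found among the 28244 genes listed for each library. RNA had been sequenced from pellets of primary cells of the ends of the femur and tibia of pups aged 5 or 6 days. The labels give the strain as C57/BL6 and call the cells murine mesenchymal progenitors. Pellets were kept for 7 days in a chondrogenic medium and then moved to an osteogenic one. The groups, with 3 libraries each, were harvested at day 7 (D7, 0 days in osteogenic medium), day 8 (D8, 1 day), day 10 (D10, 3 days) and day 28 (D28, 21 days), and share strain, cell source and the chondrogenic phase. No untreated group and no pellets kept in chondrogenic medium after day 7 were analysed here, so time in culture and the change of medium cannot be told apart.

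In the canonical Wnt pathway a ligand brings a Frizzled receptor together with the co-receptor LRP5 or LRP6, and beta-catenin then accumulates and drives target genes. Secreted frizzled-related proteins and Wif1 bind the ligands themselves, whereas Dkk1, Dkk2 and sclerostin, the product of Sost, bind the co-receptors. In the growth plate and in bone, canonical Wnt signalling is known to favour osteoblast formation over cartilage, and Frzb was first described in developing cartilage. Sost is a gene of mature osteocytes.

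Each value is the log2 of an equalized read count plus 1, on which the lowest levels of a library were taken to stand for single reads. Read numbers given here are inferred, as the position of a value among the distinct values above 0 of its library. No raw counts were used. The relative depth of the 12 libraries, read from those levels, lay between 0.730 and 1.31, with D10 replicate 1 the shallowest and the D28 libraries among the deepest (median 1.27). The floor used here, 3 reads, stood at a log2 value of 2.87 or less. Time points were compared with limma over 17674 genes, and a gene was called changed where its log2 fold change reached 1 in size with a Benjamini-Hochberg adjusted p under 0.05. Fold changes are on the log2(value + 1) scale, which understates those of low genes. Sost was too low to be tested, and Dkk1 passed the filter on low values only through its D28 libraries, which leaves 9 tested members. Nothing in the labels says that the replicates came from separate animals or cultures, so the p-values measure the spread between these libraries, which may be technical.

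The bases just before the start of transcription are shown for Sfrp2, Sfrp5, Wif1 and Dkk2, to show which letters these members hold there. They come from the RefSeq promoters of GRCm38.p6, which held 7 of the 10 members. Sfrp1, Sfrp4 and Dkk3 were not matched. Each run is written 5′ to 3′ on the gene's strand and ends just before the first annotated start, and capitals mark the letters TATAAA (or their reverse complement TTTATA).
Sfrp2, chr3:83766071-83766320, plus strand: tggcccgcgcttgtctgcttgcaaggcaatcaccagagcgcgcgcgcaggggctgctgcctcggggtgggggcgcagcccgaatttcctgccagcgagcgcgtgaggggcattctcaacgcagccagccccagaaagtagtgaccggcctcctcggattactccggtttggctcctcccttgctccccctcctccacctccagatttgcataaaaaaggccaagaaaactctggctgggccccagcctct
Sfrp5, chr19:42202253-42202502, minus strand: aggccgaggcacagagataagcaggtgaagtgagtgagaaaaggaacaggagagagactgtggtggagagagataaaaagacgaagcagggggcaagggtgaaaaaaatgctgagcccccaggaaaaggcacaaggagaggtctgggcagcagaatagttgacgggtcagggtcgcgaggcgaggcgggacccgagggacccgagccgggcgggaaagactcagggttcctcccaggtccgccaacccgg
Wif1, chr10:121033754-121033959, plus strand: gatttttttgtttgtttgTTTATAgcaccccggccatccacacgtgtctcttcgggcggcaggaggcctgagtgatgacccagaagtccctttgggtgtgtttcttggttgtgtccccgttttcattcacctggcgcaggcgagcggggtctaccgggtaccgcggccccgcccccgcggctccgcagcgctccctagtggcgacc
Dkk2, chr3:132085042-132085291, plus strand: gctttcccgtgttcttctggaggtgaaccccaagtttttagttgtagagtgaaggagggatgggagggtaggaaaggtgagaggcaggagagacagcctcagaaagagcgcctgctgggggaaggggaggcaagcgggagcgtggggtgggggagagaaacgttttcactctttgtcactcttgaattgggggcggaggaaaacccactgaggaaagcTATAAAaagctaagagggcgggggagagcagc

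In the 250 bases before the RefSeq start, searched on both strands, the TCF/LEF core letters CTTTGAA were present in 1 of the 7 matched members, Dkk1, against 4.46% of all 32851 promoters in the table. The variant CTTTGAT was found in none of the 7 and in 3.21% of all promoters, which says only that these letters are not in those windows. In Dkk1, itself a gene known to respond to Wnt signalling, the match starts 117 bases before the RefSeq start, at a place that GENCODE counts as part of the gene's exon, and is in capitals in the following bases.
Dkk1, chr19:30549596-30549624, minus strand: tcctcccaaagCTTTGAAatcccatcccg

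The letters TATAAA, searched after the sequences had been seen, were present in 3 of the 7 members (Dkk1, Dkk2 and Wif1) and in 12.4% of all promoters. In Dkk2 they start 32 bases before the RefSeq start, and in Wif1 the reverse complement lies 232 bases before it. CpG dinucleotides numbered 21 in the window of Wif1, 16 in those of Frzb and Sfrp2, 13 in that of Sfrp5, 7 in that of Dkk2 and 6 in those of Dkk1 and Sost, where the median of all promoters was 6. The printed members thus differ in these features, and no association with their changes was tested.

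As a group, the antagonists were mostly lower at D10 than at D7 and higher at D28. Of the 9 tested members, 7 were called for D10 against D7, where 18.9% of all tested genes were called in either direction: Sfrp1, Sfrp2, Sfrp5, Frzb, Wif1 and Dkk3 were lower (10.4% of all genes were) and Sfrp4 was higher (8.50% were). Against D10, 8 members were higher at D28, Sfrp4 being the exception, where 13.8% of all genes were called higher, 13.7% lower and 27.5% in either direction. The 8 include Dkk1, which had to differ to be tested. The same D10 libraries enter both comparisons, so a low value there moves both. In bulk RNA, fewer cells of a type and less RNA per cell cannot be told apart. The median log2 fold change of the tested members, Dkk1 included, was -2.69 for D10 against D7 and 3.91 for D28 against D10. The medians over all tested genes were 0.05 and -0.10.

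Smaller numbers of members changed in the other steps. For D8 against D7, 3 were called (7.04% of all genes were), with Sfrp4 higher (3.23% of all genes were) and Sfrp1 and Dkk3 lower (3.81% were), and the members' median was -0.11 beside 0.03 for all genes. From D8 to D10, 5 were called, all lower (5.58% of all genes were lower, 4.08% higher and 9.66% changed), namely Sfrp1, Sfrp2, Sfrp5, Frzb and Wif1, with a median of -2.01. For D28 against D7, 6 were called, all higher (8.63% of all genes were higher, 8.66% lower and 17.3% changed), namely Sfrp5, Frzb, Sfrp4, Wif1, Dkk1 and Dkk2, of which Dkk1 again had to differ to be tested. The median of that comparison was 1.72 for the members, Dkk1 included, and -0.03 for all genes.

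**Figure D1:**
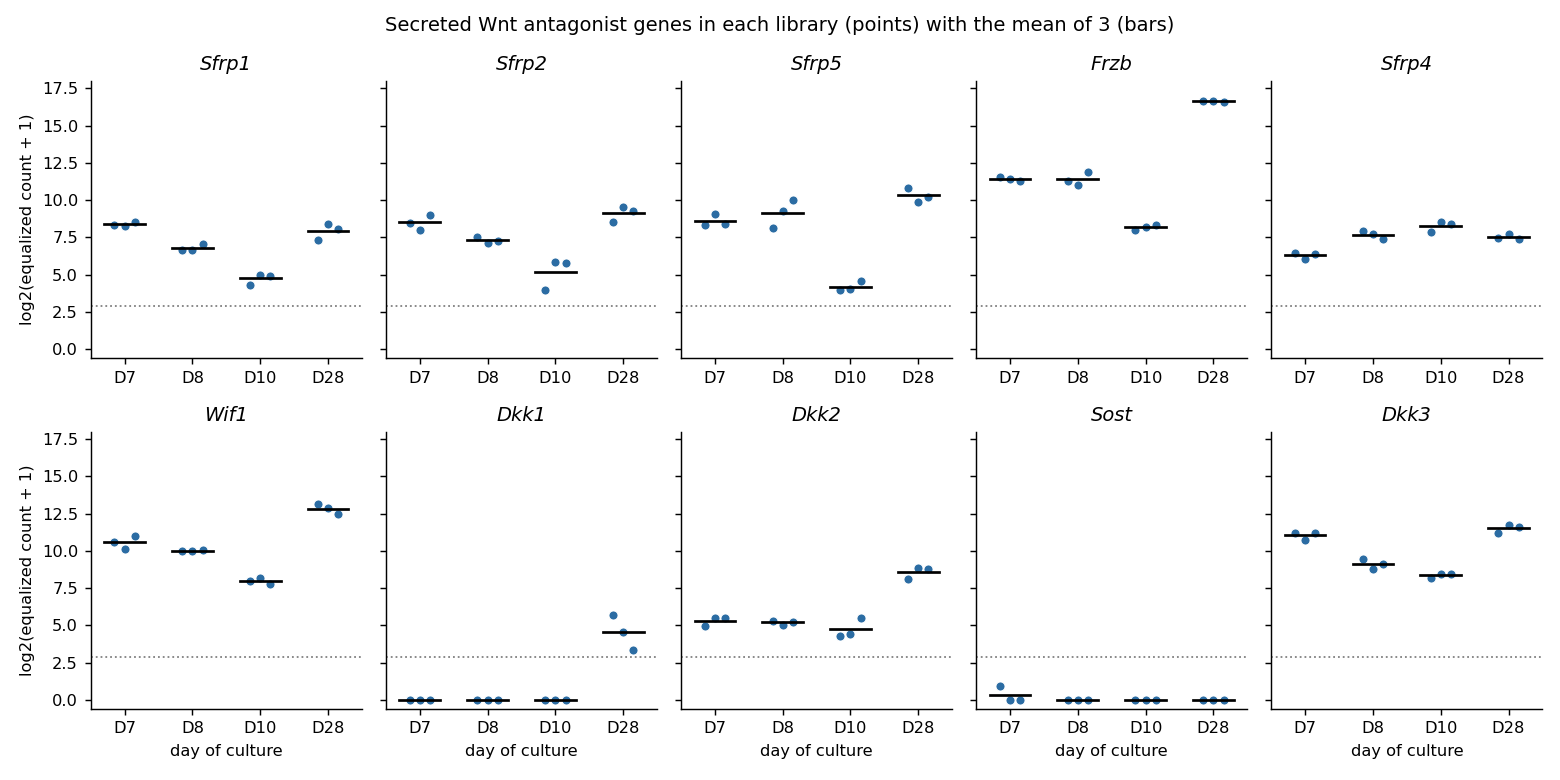
Each panel shows 1 gene, with the day of culture on the x axis and log2(equalized count + 1) on the y axis. Points are libraries, black bars the means of 3 and the dotted line the floor of 2.87. Frzb drops from about 11 at D7 to about 8 at D10 and lies above 16 at D28, Sfrp4 is lowest at D7, and Dkk1 leaves 0 at D28.

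**Figure D2:**
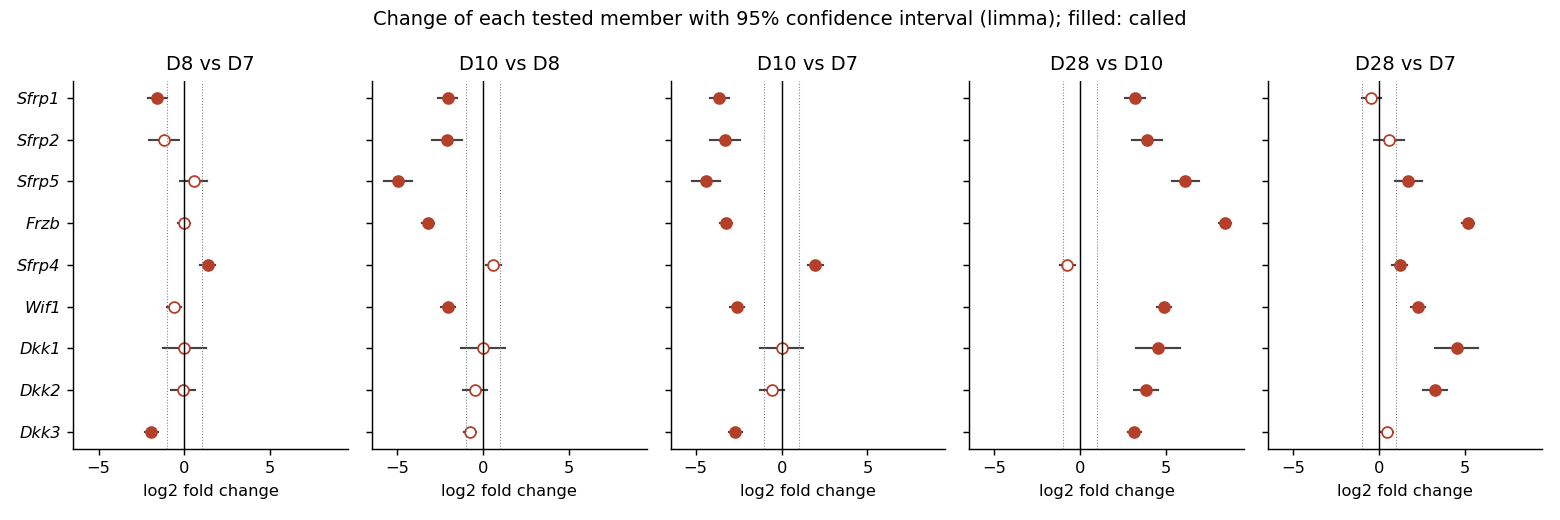
Log2 fold changes of the 9 tested members with 95% confidence intervals from limma, 1 panel for each comparison, with filled points for called changes and dotted lines at a log2 fold change of 1 in either direction. For D10 against D7, 6 filled points lie to the left and that of Sfrp4 to the right, and for D28 against D10 all 8 filled points lie to the right, among them that of Dkk1, which was kept by the filter only for its D28 values.

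Sfrp1, Sfrp2 and Sfrp5 form the closely related branch of the secreted frizzled-related proteins, which carry a cysteine-rich domain like that of the Frizzled receptors. Sfrp1 (chr8:23411502-23449632, GRCm38) had log2 values of 8.34, 8.25 and 8.53 at D7, 6.69, 6.69 and 7.04 at D8, 4.31, 5.01 and 4.93 at D10, and 7.35, 8.43 and 8.06 at D28. The D7, D8 and D10 libraries did not overlap, each later day lying lower, and the D28 values reached back into the D7 range. The fall was already called after 1 day (log2 fold change -1.57, SE 0.27, adjusted p = 0.00066, limma). It continued to D10 (-2.05 against D8, SE 0.27, adjusted p = 6.27e-05), where the gene was 12.3-fold lower than at D7 (adjusted p = 5.63e-08). From D10 to D28 Sfrp1 rose 9.17-fold (adjusted p = 8.97e-08). Its D28 level was not distinguished from that at D7 (-0.43, 95% confidence interval -0.99 to 0.14, adjusted p = 0.232), an interval that still holds a near 1-unit decrease. At D10 its values rested on 9, 21 and 21 reads.

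Sfrp2 (chr3:83766321-83774316), whose product is also a matrix-associated protein of mesenchymal cells, was spread most widely at D10. Its values were 8.49, 7.99 and 9.03 at D7, 7.53, 7.11 and 7.27 at D8, 3.98, 5.85 and 5.78 at D10 and 8.51, 9.55 and 9.28 at D28. The lowest of these came from D10 replicate 1, the shallowest library, with 7 reads against 40 and 41 in the other D10 libraries. Every D10 library nevertheless lay under every library of the other days. Sfrp2 was 4.30-fold lower at D10 than at D8 (log2 fold change -2.10, SE 0.41, adjusted p = 0.00157, limma) and 9.88-fold lower than at D7 (-3.31, SE 0.41, adjusted p = 1.25e-05). Without D10 replicate 1 these differences were -1.49 and -2.69, both still called. At D28 it was 15.0-fold higher than at D10 (log2 fold change 3.91, SE 0.41, adjusted p = 1.2e-06), or 3.30 on the log2 scale without that library. On the first day the D8 libraries all lay under the D7 ones, but the difference narrowly missed the threshold (-1.20, 95% confidence interval -2.08 to -0.32, adjusted p = 0.0503). It was called when D7 replicate 2, any 1 of the D10 libraries or D28 replicate 1 was left out of the fit. D28 and D7 overlapped (0.60, interval -0.27 to 1.48, adjusted p = 0.279).

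Sfrp5 (chr19:42197971-42202252) is best known as an extracellular inhibitor of non-canonical as well as canonical Wnts, and in adults as a product of fat tissue. It stood at 8.34, 9.06 and 8.41 at D7 and at 8.12, 9.27 and 10.04 at D8, groups that overlapped (0.54, 95% confidence interval -0.25 to 1.33, adjusted p = 0.338, limma). Its D10 values of 3.98, 4.05 and 4.57 rested on only 7, 10 and 16 reads. Between D8 and D10 the level thus fell 30.8-fold (log2 fold change -4.94, SE 0.37, adjusted p = 5.09e-07), which was the third largest absolute change of the 17674 tested genes in that comparison. No fall was called for Sfrp5 after 1 day in osteogenic medium, and its difference from Sfrp1 in this was not tested. At D28 the libraries read 10.82, 9.91 and 10.24, a level 69.6-fold above D10 (6.12, SE 0.37, adjusted p = 3.06e-09) and 3.29-fold above D7 (1.72, SE 0.37, adjusted p = 0.00182). No D28 library overlapped the D7 range.

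Frzb (chr2:80411970-80447625), the secreted frizzled-related gene typical of cartilage, was the most abundant antagonist at D28. Its values were 11.54, 11.44 and 11.28 at D7 and 11.28, 11.04 and 11.89 at D8, with no detectable difference between these days (-0.02, 95% confidence interval -0.37 to 0.34, adjusted p = 0.965, limma). At D10 the libraries had dropped to 8.03, 8.19 and 8.34, a 9.32-fold fall from D8 (log2 fold change -3.22, SE 0.16, adjusted p = 5.61e-08). At D28 they read 16.64, 16.69 and 16.58, with the tightest spread of any day (SD 0.05, n = 3). This was a rise of 349.8-fold over D10 (8.45, 95% confidence interval 8.10 to 8.80, adjusted p = 3.13e-14), number 17 by absolute change among the 17674 tested genes. Against D7 the rise was 37.1-fold (5.22, SE 0.16, adjusted p = 7.6e-12), number 83 in that comparison. None of the D28 libraries came near the range of another day.

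Sfrp4 (chr13:19623104-19632994) belongs with Frzb to the other branch of the family and is a known regulator of phosphate handling and of cortical bone. At D10 against D7 it was the only member called higher. Its log2 values were 6.45, 6.06 and 6.40 at D7, 7.92, 7.71 and 7.38 at D8, 7.88, 8.53 and 8.42 at D10 and 7.46, 7.72 and 7.41 at D28. D7 was the lowest group, and no D7 library overlapped a later day. Sfrp4 rose 2.57-fold after 1 day (log2 fold change 1.36, SE 0.21, adjusted p = 0.000278, limma) and stood 3.92-fold above D7 at D10 (1.97, SE 0.21, adjusted p = 2.26e-06) and 2.34-fold above it at D28 (1.23, SE 0.21, adjusted p = 0.000243). The step from D8 to D10 (0.61, adjusted p = 0.0394) and that from D10 to D28 (-0.74, 95% confidence interval -1.19 to -0.30, adjusted p = 0.00693) passed the p threshold but were under the fold threshold, so neither was called.

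Wif1 (chr10:121033960-121100650) binds Wnts through a domain unrelated to the Frizzled one and is expressed in cartilage and bone. Its libraries read 10.61, 10.13 and 10.997 at D7, 9.97, 9.99 and 10.04 at D8, 7.96, 8.20 and 7.80 at D10 and 13.15, 12.89 and 12.49 at D28. The groups of the 4 days did not overlap, although D7 and D8 lay close together (-0.58, adjusted p = 0.0422, limma, under the fold threshold). From D8 to D10 the gene fell 4.04-fold (-2.01, SE 0.19, adjusted p = 4.72e-06), to 6.03-fold under D7 (adjusted p = 6.02e-08). Its rise from D10 to D28 was 28.9-fold (4.85, SE 0.19, adjusted p = 2.51e-11), and D28 exceeded D7 by 4.79-fold (2.26, SE 0.19, adjusted p = 2.52e-07). Across the 12 libraries its values ran closest, among the members, to those of Frzb (Pearson r = 0.973), a description of 4 clusters of time points.

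Among the antagonists that bind the co-receptors, Dkk2 was present throughout, Dkk1 was read at D28 only and Sost was nearly unread. Dkk1 (chr19:30545863-30549665), the classical Dickkopf inhibitor, was listed at 0 in all 9 libraries of D7, D8 and D10. Its D28 values were 5.68, 4.53 and 3.37, with 32 and 15 reads behind the last pair, so the D28 libraries also differed widely among themselves (SD 1.16). With the earlier libraries at the floor of 3 reads per library, Dkk1 was at least 3.15-fold higher at D28 than at D10 and than at D7. No p is given, since the filter kept the gene only for its D28 values. Sost (chr11:101962458-101967015) had 1 read in D7 replicate 1, a log2 value of 0.94, and was listed at 0 in the remaining libraries, D28 included. Its expression was therefore not detectable at this depth, with the floor of 3 reads as the limit in each library.

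Dkk2 (chr3:132085292-132180304) can act as an inhibitor or, in some settings, as a weak activator of the pathway. It read 4.96, 5.46 and 5.52 at D7, 5.30, 5.05 and 5.26 at D8, 4.31, 4.42 and 5.51 at D10 and 8.09, 8.84 and 8.77 at D28. The first 3 days overlapped. D10 was not distinguished from D7 (-0.57, 95% confidence interval -1.27 to 0.13, adjusted p = 0.184, limma), with 9, 13 and 33 reads behind the D10 values, nor was D8 (-0.11, interval -0.81 to 0.59, adjusted p = 0.86). At D28 every library lay above all others, 14.2-fold over D10 (3.82, SE 0.33, adjusted p = 1.29e-07) and 9.54-fold over D7 (3.25, SE 0.33, adjusted p = 1.59e-06).

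Dkk3 (chr7:112116017-112159057) is the divergent Dickkopf, which does not bind the LRP co-receptors as Dkk1 does. Its values were 11.20, 10.73 and 11.23 at D7, 9.45, 8.78 and 9.13 at D8, 8.21, 8.42 and 8.46 at D10 and 11.23, 11.72 and 11.60 at D28. Dkk3 had the largest first-day change of the members, falling 3.81-fold from D7 to D8 (log2 fold change -1.93, SE 0.18, adjusted p = 4.1e-06, limma). The further step to D10 was smaller and not called (-0.76, SE 0.18, adjusted p = 0.00474), although the groups did not overlap. At D10 the gene stood 6.45-fold under D7 (-2.69, SE 0.18, adjusted p = 2.08e-08), and by D28 it had risen 8.90-fold from there (3.15, SE 0.18, adjusted p = 1.21e-09). The D28 and D7 ranges met without overlapping, and the difference was under the fold threshold (0.46, 95% confidence interval 0.09 to 0.84, adjusted p = 0.0497).

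Levels of different genes were compared per kilobase of exon, with the union of GENCODE M21 exons as the length. On that scale, log2(equalized count per kb + 1), Frzb led at D7 with 9.73 ± 0.13 (SD, n = 3), followed by Dkk3 at 9.31 and Wif1 at 9.30. Wif1, which varied most of the 3, overlapped both Dkk3 and Frzb, whereas Dkk3 and Frzb did not overlap. Sfrp5 (7.68) and Sfrp2 (7.40) also overlapped, and Sfrp1 (6.26), Sfrp4 (4.30) and Dkk2 (3.52) came below them. At D8 the order was Frzb 9.71, Wif1 8.72, Sfrp5 8.22, Dkk3 7.38, Sfrp2 6.21, Sfrp4 5.63, Sfrp1 4.72 and Dkk2 3.42, and the pairs Wif1 with Sfrp5 and Sfrp5 with Dkk3 overlapped.

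D10 brought the leading antagonists close together. Wif1 at 6.72, Dkk3 at 6.62, Frzb at 6.50 and Sfrp4 at 6.23 each overlapped the next in order, although every Wif1 library lay above every Sfrp4 library, and a gap separated them from Sfrp2 (4.15), Sfrp5 (3.35), Dkk2 (3.00) and Sfrp1 (2.79). At D28 the genes spread out again, with Frzb at 14.94, Wif1 at 11.56, Dkk3 at 9.77, Sfrp5 at 9.40, Sfrp2 at 8.01, Dkk2 at 6.69, Sfrp1 at 5.84, Sfrp4 at 5.49 and Dkk1 at 3.35. Neighbours that overlapped there were Dkk3 and Sfrp5, Dkk2 and Sfrp1, and Sfrp1 and Sfrp4. Sfrp4 thus moved from seventh of the 8 genes at D7 into the leading cluster at D10 and back to the eighth place at D28.

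**Figure D3:**
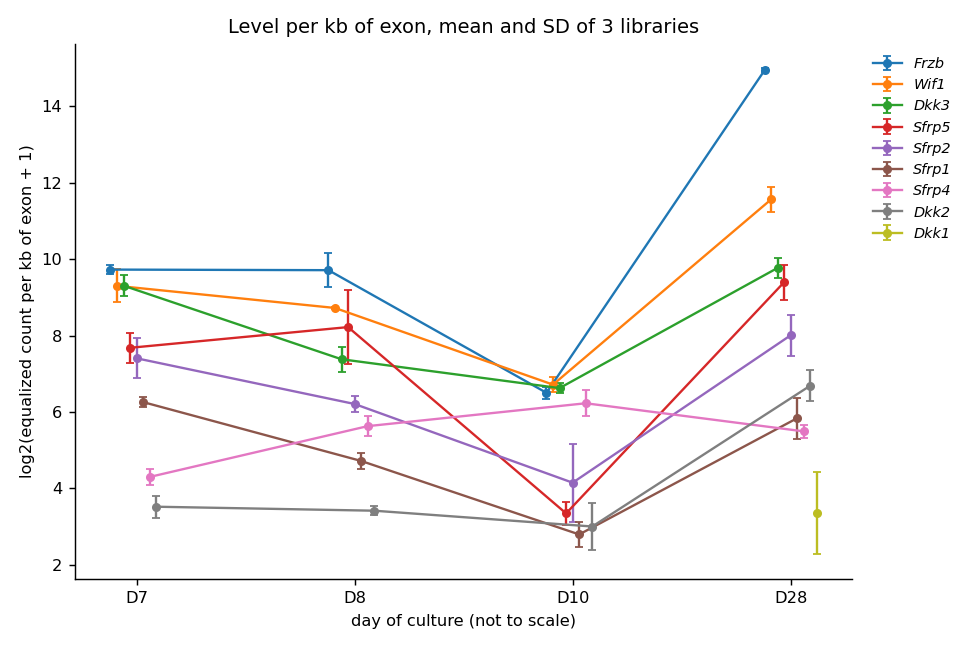
Mean level of each gene on the log2(equalized count per kb of exon + 1) scale, with the SD of 3 libraries as error bars and the days at equal spacing on the x axis. The lines draw together at D10, where 4 genes lie between 6.23 and 6.72, and spread at D28 from 3.35 for Dkk1 to 14.94 for Frzb.

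The makeup of the antagonist transcripts changed with the levels. Summed unlogged, the level per kilobase of the 10 genes was 2319 to 2862 in the D7 libraries, 1667 to 2478 at D8, 350.5 to 448 at D10 and 34701 to 37855 at D28. Frzb supplied 32.6% ± 5.16 (SD, n = 3) of that sum at D7 and 43.7% ± 4.37 at D8, but 22.0% ± 1.72 at D10 and 86.0% ± 1.33 at D28. Without Frzb the sum still ranged lowest at D10 (270.0 to 358) and highest at D28 (4439 to 5742), with 1461 to 2092 at D7.

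Wif1 held a similar share on the first 3 days, 24.4%, 22.2% and 25.7%, and 8.36% at D28. Dkk3 supplied 24.2% at D7 and 24.0% at D10, but 8.90% at D8 and 2.41% at D28. The share of Sfrp4 was 0.71% at D7 and 2.65% at D8, reached 18.2% ± 1.91 at D10 and was 0.12% at D28, while that of Sfrp5 was 16.8% at D8 and 2.28% at D10. A share can change through the other genes alone, so that of Wif1 at D28 went with a rise in its own level.

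**Figure D4:**
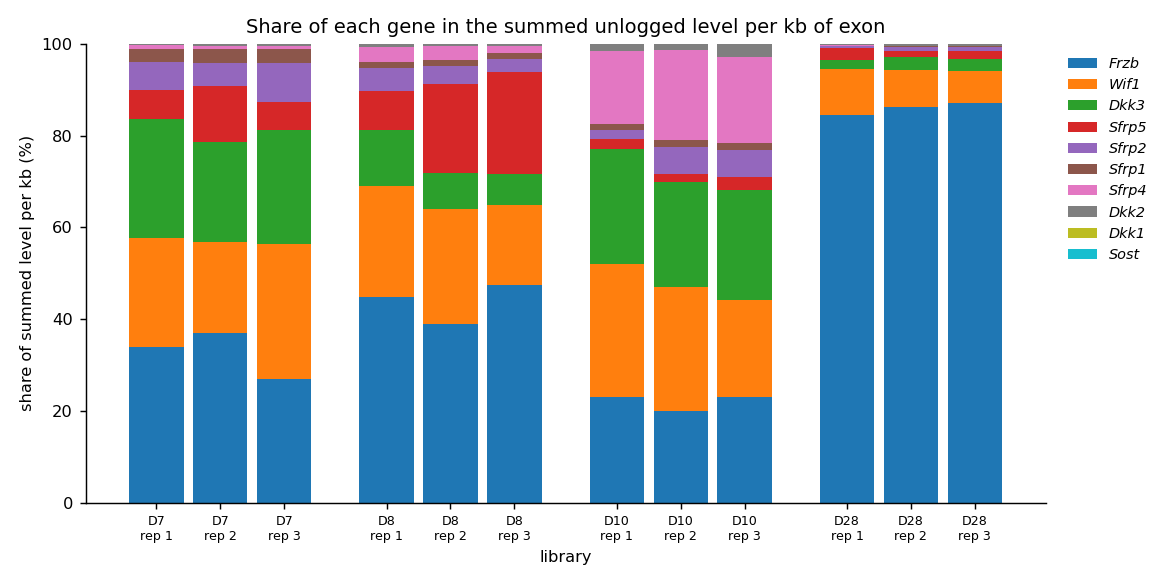
Stacked bars give the percent share of each gene in the summed unlogged level per kb of exon of the 10 antagonists, 1 bar for each library. Frzb fills 84.6 to 87.2% of the D28 bars, and Sfrp4 is visible mainly at D10, where it averages 18.2%.

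The remaining genes of the pathway were examined in lists chosen by function. Their counts, and those of the cell type markers further on, are to be read against the shares of all tested genes called, which were 8.50% higher and 10.4% lower for D10 against D7, 13.8% and 13.7% for D28 against D10, and 8.63% and 8.66% for D28 against D7. The medians of all tested genes in these comparisons were 0.05, -0.10 and -0.03. Of 19 Wnt ligand genes 13 were tested, and at D10 against D7 1 was higher and 5 were lower (median 0.43), at D28 against D10 4 were higher and 4 lower (median -0.83), and at D28 against D7 1 was higher and 5 lower (median -1.15). Wnt7b, a ligand linked to osteoblast and chondrocyte maturation, rose from 5.74 ± 0.47 (SD, n = 3) at D7 to 8.79 ± 0.19 at D10 (log2 fold change 3.05, SE 0.38, adjusted p = 1.31e-05, limma). Wnt16, a ligand found in bone and joints, was lower at D10 than at D7 (adjusted p = 0.000935), with a mean of 5.24 at D7 and of 1.74 at D10, which is under the floor of 2.87, so that no fold is given. At D28 each library held at most 3 reads of Wnt7b, at least 60.3-fold less than at D10 (adjusted p = 1.62e-10). Wnt10b, which is known to favour osteoblasts over adipocytes, was lower at D28 than at D10 (-3.21, SE 0.35, adjusted p = 1.46e-06). Over the same interval Frzb, Wif1 and Dkk2 rose, and the largest rise of a ligand was that of Wnt4 (2.41, SE 0.25, adjusted p = 9.35e-07). With 4 ligands higher and 4 lower, the ligands had no common direction.

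Receptors and co-receptors carry the signal that the antagonists limit. Of the 18 Frizzled, LRP, Kremen, Ror and Ryk genes, all tested, 2 were higher and 7 lower at D10 than at D7 (median -0.58), and 6 were higher and 1 lower at D28 than at D10 (median 0.71). For D28 against D7 4 were called, all higher (median -0.01). Fzd4 was lower at D10 than at D7 (-2.24, SE 0.13, adjusted p = 8.37e-09, limma) and higher at D28 than at D10 (3.86, SE 0.13, adjusted p = 7.73e-12). Fzd9, a receptor needed for normal bone formation, was also higher at D28, by 3.69 (SE 0.19, adjusted p = 6.27e-10). A further list of 18 extracellular and membrane regulators, 16 tested, had 1 higher and 3 lower at D10 than at D7 and 8 higher and 2 lower at D28 than at D10 (medians -0.57 and 1.17), and at D28 against D7 5 were higher and 4 lower (median 0.23). The list includes R-spondin genes and their receptors, so its counts are not those of inhibitors alone. In it, Sostdc1, a relative of Sost, was at 3 reads or fewer at D7 and D10 and at 6.50 ± 0.33 at D28, at least 12.3-fold above D10 (adjusted p = 2.65e-06). Draxin went from 8.45 ± 0.92 at D7 to 3.08 ± 0.44 at D10, close to the floor (adjusted p = 5.63e-08). It stood at 7.84 ± 0.04 at D28 (adjusted p = 8.53e-08 against D10). Lgr6, an R-spondin receptor, fell from D10 to D28 (-5.12, SE 0.31, adjusted p = 2.7e-09).

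Target genes of beta-catenin, 12 of 13 tested, were called in both directions. At D8 against D7 only 1 of the 12 was called, Tcf7, a transcription factor of the pathway (1.22, SE 0.21, adjusted p = 0.000858, limma). It was higher, where 3.23% of all genes were called higher and 7.04% in either direction. At D10 against D8 2 were called, both lower (median -0.28), where 5.58% of all genes were lower. At D10 against D7 3 were called, all lower (median -0.22), at D28 against D10 4 were higher and 2 lower (median -0.00), and at D28 against D7 2 were higher and 2 lower (median -0.08). Lgr5, Notum, Apcdd1, Znrf3 and Rnf43 stand in this list and in that of the regulators. Axin2, the most general target and named here after its values were seen, did not differ detectably between D10 and D7 (-0.00, 95% confidence interval -0.55 to 0.54, adjusted p = 0.995, limma) or between D28 and D10 (0.17, interval -0.37 to 0.71, adjusted p = 0.606). Single targets did change over the latter step. Tnfrsf19, a membrane receptor, was higher at D28 (mean 5.23, adjusted p = 0.000429), as was Lgr5, an R-spondin receptor (mean 5.66, adjusted p = 6.11e-06). Their D10 means of 1.90 and 2.37 are under the floor, so that no fold is given. The 2 targets called lower over that step were Nkd2 (-2.07, SE 0.25, adjusted p = 5.18e-06, limma) and Tcf7 (-1.52, SE 0.21, adjusted p = 2.24e-05).

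Markers of the cell types that such pellets could hold were read beside these changes. None of the 10 chondrocyte markers was at the floor in all libraries of a day, and 7 of them were lower at D10 than at D7 and 6 higher and 1 lower at D28 than at D10. Their summed log2 level was 21.26 to 21.29 at D7 and 21.21 to 21.42 at D8, against 20.22 to 20.28 at D10 and 21.18 to 21.24 at D28. This sum, like those of the lists below, is dominated by the most abundant markers and can move against the counts. Between D28 and D7, 3 of the 10 were higher and 2 lower (median 0.09). Of the 5 hypertrophic markers 4 were lower at D10 than at D7, and 4 were higher and 1 lower at D28 than at D10, with summed levels of 17.53 to 17.83 at D7, 17.38 to 18.09 at D8, 17.69 to 18.39 at D10 and 15.91 to 16.68 at D28.

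For D10 against D8, where 5.58% of all genes were lower, 7 of 10 chondrocyte, 2 of 5 hypertrophic and 2 of 9 osteoblast and osteocyte markers were lower. So were 4 of 6 skeletal muscle, 1 of 6 tendon and joint and 1 of 5 endothelial markers. Adipocyte markers were read next, of which 3 of 6 were lower in that step. Of the 6, 5 were lower at D10 than at D7 and all 6 were higher at D28 than at D10 and than at D7, and their summed log2 level was 11.95 to 12.20 at D7, 10.83 to 11.25 at D8, 9.89 to 10.47 at D10 and 14.88 to 15.27 at D28, with Lep at 3 reads or fewer at D8 and D10. Of 9 osteoblast and osteocyte markers, 5 were higher and 3 lower at D10 than at D7, 5 higher and 1 lower at D28 than at D10 and 4 higher and 2 lower at D28 than at D7, with summed levels of 18.45 to 19.10 at D7, 17.25 to 18.37 at D8, 16.78 to 17.62 at D10 and 17.41 to 17.56 at D28, and Mepe at 3 reads or fewer at D8 and D10. The part of these cell types in the changes of the antagonists was not tested.

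The remaining lists mark cells of other tissues. All 6 skeletal muscle markers were lower at D28 than at D7, their sum going from 11.21 to 11.54 at D7, through 9.44 to 10.23 at D8 and 7.81 to 8.35 at D10, to 6.06 to 6.97 at D28, where Myh3 and Myod1 were at 3 reads or fewer. Of 6 tendon and joint markers, 5 were lower and 1 higher at D28 than at D7, with sums of 14.88 to 15.22 at D7, 15.70 to 15.92 at D8, 15.74 to 16.06 at D10 and 12.18 to 13.09 at D28. Macrophage and blood markers, 5 of 6 tested, summed to between 9.66 and 10.46 over the libraries of D7, D8 and D10 and to between 9.71 and 12.11 at D28, where they varied most, with 3 of them higher and 1 lower at D28 than at D10 and Hba-a1 at the floor. The 5 endothelial markers summed to between 4.04 and 7.75. Their part in the results was not tested either.

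The genes whose values ran closest to each antagonist, by Pearson correlation over the 12 libraries, describe the shape of the time course and carry no p, since the libraries form 4 clusters and share their normalization. Frzb ran with Mccc2 (r = 0.990), Tapbp (0.989) and Vit (0.989), and Wif1 with Sort1 (0.990), Bphl (0.988) and Ckb (0.986). Dkk3 ran with Cebpd and Auh (both 0.990) and Psd4 (0.989), and Sfrp2 with Acadvl (0.992), Basp1 (0.983) and Fut11 (0.981). For Sfrp1 the leading genes were H2-Q7 (0.985), Rhob and Tbx15 (both 0.983), and for Sfrp5 they were Itih5l-ps (0.982), Grip2 (0.975) and Ppp1r3b (0.973). Dkk2 ran with Mturn (0.985), Adhfe1 and Rnd2 (both 0.979). Sfrp4 had the weakest closest matches, AI413582 (0.968), Asna1 (0.964) and Bid (0.961). Dkk1 matched Gad2 (0.999), Serpina1d (0.997) and Ankrd63 (0.995), values that rest on zeros shared by the libraries before D28. Among the members themselves, Sfrp1 and Sfrp2 ran together (0.948), as did Frzb and Dkk2 (0.929), and Sfrp1 and Sfrp4 ran opposite (-0.77).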

How the data were processed

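Stranded, poly(A)-selected libraries were made from pellets at 4 time points with 3 replicates each, 12 libraries in all. According to the supplementary methods and the submitters' processing notes, reads were trimmed with Trimmomatic 0.36, aligned with HISAT2, annotated with Cufflinks and counted per gene with HTSeq. The authors deposited log2 values, namely the log2 of the count, equalized between samples, plus a pseudocount of 1. Replicates were not pooled. The notes name GRCm38 and the supplementary methods hg38, and the symbols are those of mouse genes, so positions here are GRCm38 from GENCODE M21. Whether counting used strand is not given in the sources used here. Sorted values are nearly equal between libraries, so total counts are not kept and depth is relative, taken from 562 genes at low read levels. Intervals and floors that rest on reads cover counting error only.

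The filter asked for 3 or more libraries with a log2 value of 1 or higher, which 17674 genes met and 10570 did not. The 17674 were tested in 1 limma 3.58.1 fit (R 4.3.3) with a mean for each time point and a variance trend (8 residual degrees of freedom). The p-values are two-sided and adjusted by Benjamini-Hochberg over all tested genes. The code was tested on simulated data. Python 3.11.15 (numpy 2.4.6, pandas 2.3.3, matplotlib 3.10.9) gave levels per kb, motifs and figures. All 10 members are named, and of each list at most 2 genes with the largest absolute change among those called in a comparison. Also named are genes that lists share, the 3 genes most correlated with each called member, and Axin2 and Wnt4, chosen after their values were seen. The members and lists were chosen with earlier results of these data known. Alternatives covered the filter, scaling, pseudocount, fold threshold, the study's own rule, a replicate block, fits on each pair of days and each library left out. No sequencing batch is given in the labels, so none was examined.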

Additional observations from a re-analysis of the deposited data

How the results depend on the processing

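Of 45 changes tested for the members, 29 were called (2 of them of Dkk1, which had to differ to be tested), and all 29 stayed called in every alternative that tested them except a fold threshold of at least 2 on the log2 scale. Under that threshold none of the 3 calls for D8 against D7 remained (0 called by limma). The 3 lost are Sfrp1, Sfrp4 and Dkk3, and Sfrp4 was also lost for D10 against D7 (6 left) and Sfrp4 and Sfrp5 for D28 against D7 (4 left). With the usual threshold of 1, the study's own rule called 4 members for D8 against D7 (8.44% of all tested genes), and 5 had an unadjusted p under 0.05 whatever their fold (33.3% of all tested genes had). Leaving out each library in turn gave 3 to 4 calls for D8 against D7, and 5, 7, 8 and 6 each time for D10 against D8, D10 against D7, D28 against D10 and D28 against D7. Sfrp2 at D8 against D7 (-1.20, adjusted p = 0.0503) was called in 11 of 24 alternatives, among them median of ratios scaling (-1.25, adjusted p = 0.041) and the fits without D7 replicate 2 (-1.46, adjusted p = 0.0378), without each of the D10 libraries and without D28 replicate 1 (adjusted p = 0.00493 to 0.0466), and its adjusted p reached 0.168 without D7 replicate 3. Sfrp5 was called there without D8 replicate 1 (1.05, adjusted p = 0.0355). With a stricter filter on mean level Dkk1 was not tested. Median of ratios scaling moved the median of all genes for D28 against D10 from -0.10 to 0.01 and changed no direction of a called member. Wif1 and Dkk3 exchanged places at D7 when the longest transcript replaced the exon union. No pairing by replicate number was detected. Same-numbered libraries correlated in their deviations between -0.18 and 0.26, against -0.30 to 0.33 for libraries of different number. Of the 18 same-numbered pairs 2 were over 0.1, and 3 of 12 libraries correlated best with their own number. With 3 libraries for each day, these values cannot tell whether a number stands for a shared culture or animal. With a replicate block 4 members were called for D8 against D7 in place of 3 (Sfrp2, adjusted p = 0.0356, was added), and the other counts stayed at 5, 7, 8 and 6. Depth limits Dkk1 and Sost, and the values of Sfrp1, Sfrp2, Sfrp5 and Dkk2 at D10, which rest on as few as 7 reads.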
